A study of Mus musculus with 10 samples.

Results

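Replication licensing and origin firing genes were examined in mouse embryonic stem cells (ESCs) that lack DGCR8 or DDX6. The 10 genes were chosen by their known role, with earlier results of these data known, and matched by symbol. They are Mcm2, Mcm3, Mcm4, Mcm5, Mcm6, Mcm7, Mcm10, Cdc45, Cdc6 and Cdt1, out of 51467 genes in the count table. All 10 passed the filter on low values, with between 157 and 5249 counts per gene and library, and 11683 genes were tested in all.

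A chromosome is copied from many start points, the origins, and each is made ready before S phase. The origin recognition complex binds the DNA, Cdc6 and Cdt1 join it, and together they load a ring of the subunits Mcm2 to Mcm7, a step known as licensing. When S phase begins, Cdc45 and the GINS complex bind the ring and turn it into the working helicase, a step known as firing that Mcm10 completes. Geminin, encoded by Gmnn, holds Cdt1 back once S phase has begun so that no origin is licensed again in the same cycle. Most of these genes are classic targets of E2F transcription factors, and ESCs are known for short gap phases and a large share of cells in S phase.

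Poly(A) RNA was counted at its 3′ end by QuantSeq in 10 libraries, and the study addressed what the loss of microRNAs and the loss of DDX6 have in common. Wild-type (WT) V6.5 cells gave 3 libraries. DGCR8 knockout (KO) cells gave 3 libraries and came from 1 existing line, which lacks a protein needed to make nearly all microRNAs. DDX6 KO cells gave 4 libraries, 2 from each of 2 clones made from V6.5 cells by CRISPR editing, and lack an RNA helicase that links microRNA complexes to translational repression and decapping. By the study's Sanger sequencing 1 clone carries an insertion of a single base and the other a large deletion, and the sources used here do not say which is clone 1. All were grown in serum with LIF and inhibitors of MEK and GSK3. No source states that the libraries of a group came from separate cultures, so p-values measure the spread between libraries, which may be technical. WT and DGCR8 KO are 1 line each, so a difference between lines cannot be told apart from loss of DGCR8. For DDX6 KO the same holds for any trait that the 2 clones share.

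Totals ran from 2131156 to 4745083 counts per library. Dgcr8 had 50.4, 52.1 and 65.8 CPM (a gene's counts relative to the scaled library total) in WT and 10.1, 9.16 and 15.5 CPM in DGCR8 KO. Ddx6 had 505 to 586 CPM in WT, 149 and 135 CPM in clone 1 and 39.0 and 25.7 CPM in clone 2, so both targeted genes fell in the libraries labelled with them, and less in clone 1 than in clone 2 for Ddx6. The 8 pluripotent cell markers summed to 4037 to 4309 CPM in WT, 3640 to 4017 CPM in DGCR8 KO and 4038 to 4269 CPM in DDX6 KO, so that DGCR8 KO lay below WT. Of them Klf4 (log2 fold change −0.46), Tfcp2l1 (−0.41), Nanog (−0.33) and Zfp42 (−0.27) were lower and Sox2 (0.50) higher in DGCR8 KO, and Tfcp2l1 (−0.50) was lower and Nanog of chromosome 6 (0.62) higher in DDX6 KO. Of 8 primitive endoderm markers only Dab2 passed the filter, and the list summed to 8.47 to 11.04 CPM in WT, 5.43 to 7.33 CPM in DGCR8 KO and 16.8 to 25.6 CPM in DDX6 KO. Dab2 had means of 6.29 CPM in WT, 1.06 CPM in DGCR8 KO (log2 fold change −2.36) and 16.6 CPM in DDX6 KO (1.56). Pdgfra went the other way in DGCR8 KO, with means of 0.34 CPM in WT, 1.87 CPM in DGCR8 KO and 1.11 CPM in DDX6 KO. So did Amn, with 0.41, 2.20 and 1.48 CPM in the same order. Sox7 was at 0 in all WT and DGCR8 KO libraries, and Gata6, Gata4 and Sox17 means were at or under 1.43 CPM. Of 8 fibroblast markers Fn1 and Col1a1 passed, and Dcn and Postn were at 0 in all WT and DDX6 KO libraries. The list summed to 541 to 548 CPM in WT, 523 to 599 CPM in DGCR8 KO and 236 to 272 CPM in DDX6 KO, almost all of it from Fn1. The part of these marker differences in the results below was not tested.

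Genes of 2 chromosomes were shifted as a whole, and 3 of the 10 genes lie on them. The median gene of chromosome 6 stood 0.53 to 0.68 log2 units above its WT mean in the 4 DDX6 KO libraries (561 genes tested), and the median gene of chromosome 8 stood 0.40 to 0.52 log2 units below it in the 3 DGCR8 KO libraries (644 genes tested). Mcm2 lies on chromosome 6, and Mcm5 and Cdt1 on chromosome 8. Their changes are therefore given as fitted and again after the median of the chromosome was taken off each library, an alternative chosen after seeing the data. What moved these chromosomes was not tested.

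In WT cells the set held 5005 to 5475 CPM in all, with Mcm7 at the top and Cdc45 at the bottom. Because QuantSeq counts transcript ends, these levels were not divided by length, and they rank numbers of ends rather than of bases. Mean WT levels were 1063 ± 94.5 CPM for Mcm7, 867 ± 64.9 for Mcm3, 814 ± 111 for Mcm4, 656 ± 79.2 for Mcm5, 531 ± 29.1 for Mcm6 and 431 ± 22.2 for Mcm2 (SD, n = 3). The other 4 genes had means of 410 ± 52.1 CPM for Cdt1, 202 ± 17.6 for Mcm10, 179 ± 6.82 for Cdc6 and 84.9 ± 2.19 for Cdc45 (SD, n = 3). Among neighbours in this order, the WT libraries of Mcm3 overlapped those of Mcm4, as did Mcm4 with Mcm5, Mcm2 with Cdt1 and Mcm10 with Cdc6. In DGCR8 KO the set summed to 3885 to 4263 CPM and in DDX6 KO to 3532 to 3614 CPM, so that no library of either knockout reached the WT range.

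**Figure D1:**
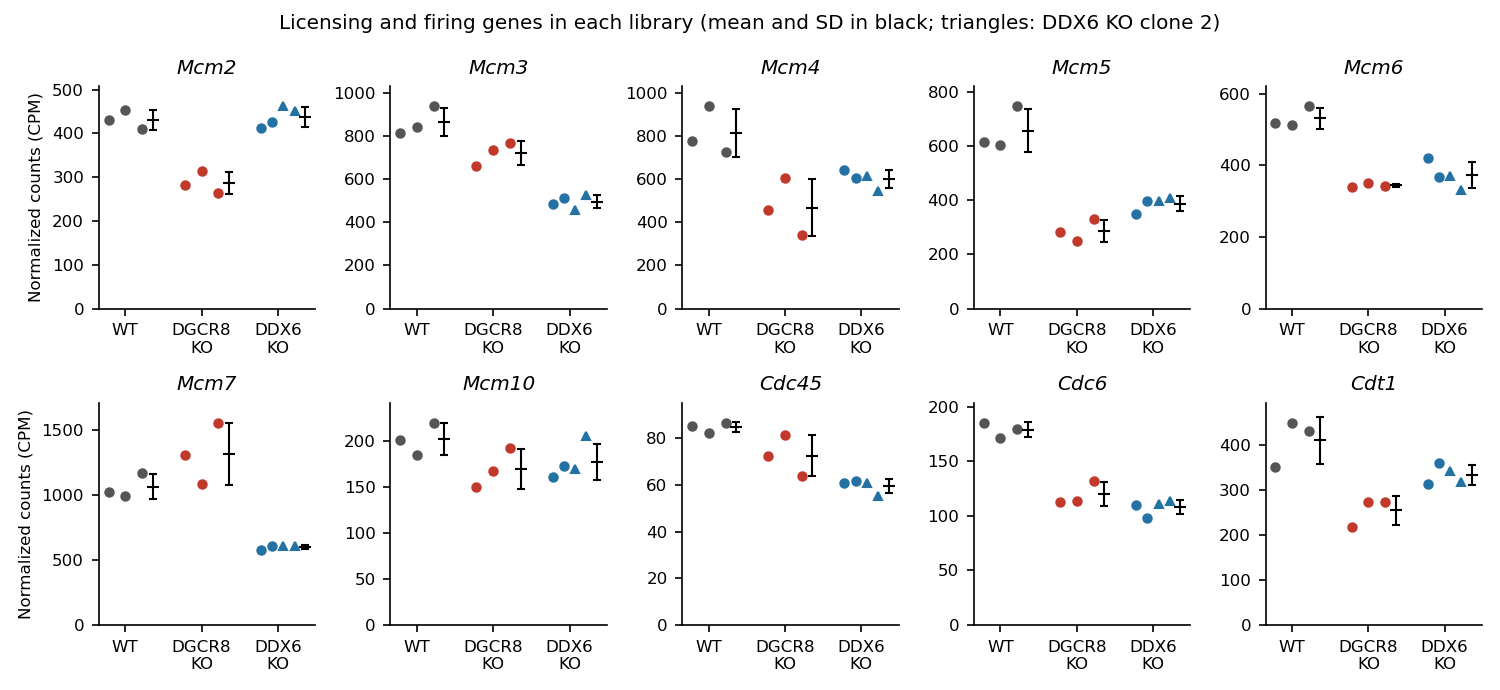
Normalized counts (CPM, from 0) of each gene in each of the 10 libraries, 1 panel per gene with its own scale, with group means and SD in black (n = 3, 3 and 4) and triangles for DDX6 KO clone 2. Mcm5 was lower in every library of both knockouts, and Mcm2 was low in DGCR8 KO only as measured. Mcm7 was low in the 4 DDX6 KO libraries. Its mean was higher in DGCR8 KO than in WT, although 1 DGCR8 KO library lay inside the WT range.

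The promoters of 6 of these genes hold letters that E2F proteins are known to bind, and those of Mcm5, Mcm6 and Mcm7 are shown as examples. Whether genes with and without a match changed differently in the knockouts was not tested. Windows from 250 bases before to 50 bases after each annotated start were taken from RefSeq (GRCm38.p6), where 9 of the 10 genes matched, with Mcm7 at 2 starts. Mcm4 was not matched. The motif was searched on both strands as TTTCCCGC, TTTGCCGC, TTTCGCGC or TTTGGCGC. It occurred in 6 of the 9 matched genes, Mcm3, Mcm5, Mcm6, Mcm7, Cdc6 and Cdt1, against 2.26% of 32851 promoter windows of that length, and 4 of them, Mcm3, Mcm5, Mcm6 and Mcm7, held 2 or more matches against 0.1% of windows. The CCAAT box was found in 7 of the 9 genes against 37.41% of windows. The windows are printed 5′ to 3′ on the strand of the gene with E2F matches in capitals. That of Mcm5 is chr8:75109259-75109558 (plus strand), that of Mcm6 chr1:128359656-128359955 (minus strand) and that of the first Mcm7 start chr5:138171834-138172133 (minus strand).
Mcm5: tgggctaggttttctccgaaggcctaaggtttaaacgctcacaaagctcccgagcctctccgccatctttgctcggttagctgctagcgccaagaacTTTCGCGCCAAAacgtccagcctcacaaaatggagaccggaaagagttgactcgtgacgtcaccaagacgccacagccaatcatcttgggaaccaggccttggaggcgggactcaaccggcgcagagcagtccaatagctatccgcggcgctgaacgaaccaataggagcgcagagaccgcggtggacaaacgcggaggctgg
Mcm6: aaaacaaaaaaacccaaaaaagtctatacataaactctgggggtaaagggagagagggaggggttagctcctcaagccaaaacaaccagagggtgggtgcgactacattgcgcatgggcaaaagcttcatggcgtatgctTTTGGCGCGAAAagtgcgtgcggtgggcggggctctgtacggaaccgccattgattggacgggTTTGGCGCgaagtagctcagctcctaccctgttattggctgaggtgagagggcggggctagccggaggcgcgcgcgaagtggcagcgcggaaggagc
Mcm7: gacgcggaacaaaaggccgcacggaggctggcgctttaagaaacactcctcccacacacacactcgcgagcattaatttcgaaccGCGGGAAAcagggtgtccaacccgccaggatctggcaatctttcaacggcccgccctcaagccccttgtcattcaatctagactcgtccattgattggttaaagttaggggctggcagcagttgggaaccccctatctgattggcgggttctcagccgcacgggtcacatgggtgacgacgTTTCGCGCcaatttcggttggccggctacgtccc
In Mcm5 the capitals are 2 matches on opposite strands that overlap, at −153 to −146 and −149 to −142 from the start. Mcm6 has such an overlapping pair at −110 to −103 and −106 to −99 and a single match at −47 to −40. Mcm7 has 1 match at −165 to −158 and another at 16 to 23 from its first start, and none at its second start. A match is a run of letters and no measurement of binding, and these windows were not measured here.

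**Figure D2:**
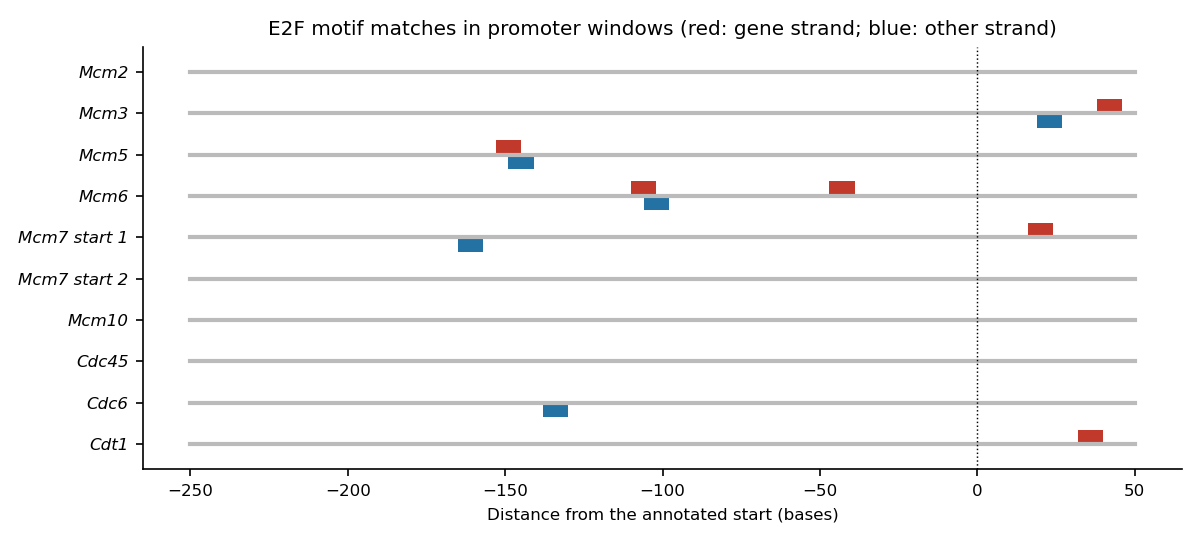
Positions of E2F motif matches in 10 promoter windows of 9 genes, against the distance from the annotated start in bases (0 is the start), with matches on the gene's strand in red above the line and those on the other strand in blue below it. Mcm6 holds 3 matches, Mcm3, Mcm5 and the first start of Mcm7 hold 2 each, Cdc6 and Cdt1 hold 1, and the windows of Mcm2, Mcm10, Cdc45 and the second start of Mcm7 hold none. The Mcm10 window ends in TTTGGCG, so a match that ran past its edge would be missed.

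In DGCR8 KO, 7 of the 10 genes fell and 1 rose. Mcm5, Mcm4, Cdt1, Mcm6, Mcm2, Cdc6 and Mcm3 were lower than in WT, Mcm7 was higher, and Mcm10 and Cdc45 did not pass the test. Among all genes tested, 16.5% were called lower and 19.9% higher in this comparison (limma with voom weights, Benjamini-Hochberg adjusted p under 0.05), and the median log2 fold change was −0.59 for the 10 genes against 0.00425 for all. The libraries of DGCR8 KO and WT did not overlap for 8 of the 10, against 44.8% of all genes. Only Mcm5 was also beyond a log2 fold change of 1, as 14.7% of all genes were. In a bulk sample, fewer cells in the phases that use these genes and less RNA per cell cannot be told apart.

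Mcm5, one of the helicase ring subunits (ENSMUSG00000005410, chr8:75109569-75128439), had the lowest log2 fold change of the 10 in DGCR8 KO as fitted, though not once chromosome medians were taken off. It had 616, 604 and 747 CPM in WT and 284, 249 and 329 CPM in DGCR8 KO. Every knockout library was below every WT library, and the mean was 43.8% of WT. On the log2 scale it changed by −1.21 ± 0.12 (SE; limma adjusted p = 3.3e-07). With the median of chromosome 8 taken off it was −0.75 ± 0.11 (limma adjusted p = 3.7e-05), still past the threshold, while Mcm4 was then lower at −0.87 ± 0.15.

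Mcm4, the neighbour of Mcm6 and Mcm7 in the ring (ENSMUSG00000022673, chr16:15623897-15637400), had 776, 939 and 727 CPM in WT and 460, 605 and 340 CPM in DGCR8 KO. The groups did not overlap, although the 3 knockout libraries spread widely. Its log2 fold change was −0.82 ± 0.15 (limma adjusted p = 0.0003). Mcm6 (ENSMUSG00000026355, chr1:128331590-128359664) had 517, 511 and 564 CPM in WT and a narrow 340, 349 and 343 CPM in DGCR8 KO, a log2 fold change of −0.63 ± 0.10 (limma adjusted p = 8.3e-05). Mcm2, the subunit that also handles parental histones (ENSMUSG00000002870, chr6:88883474-88898780), had 430, 454 and 410 CPM in WT and 282, 314 and 263 CPM in DGCR8 KO. Its groups did not overlap, and its log2 fold change was −0.59 ± 0.10 (limma adjusted p = 0.00016).

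The loading factors Cdc6 and Cdt1 were both lower in DGCR8 KO. Cdc6, an ATPase that recruits the ring to the origin (ENSMUSG00000017499, chr11:98907801-98923936), had 185, 172 and 179 CPM in WT and 113, 114 and 132 CPM in DGCR8 KO, with no overlap and a log2 fold change of −0.58 ± 0.11 (limma adjusted p = 0.00042). Cdt1, which brings the ring to the origin (ENSMUSG00000006585, chr8:122568015-122573128), had 351, 449 and 430 CPM in WT and 217, 273 and 274 CPM in DGCR8 KO. These groups did not overlap either, with a log2 fold change of −0.70 ± 0.12 (limma adjusted p = 0.00015). Cdt1 is on chromosome 8, and with that median taken off its value was −0.24 ± 0.12 (limma adjusted p = 0.13), so the call did not hold relative to the chromosome. Per library the remainder ran from −0.51 to −0.056 log2 units in DGCR8 KO and from −0.22 to 0.13 in WT, and these ranges overlapped.

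Mcm3 and Mcm7 stood apart from the other subunits in DGCR8 KO. Mcm3 (ENSMUSG00000041859, chr1:20802968-20820312) had 817, 843 and 940 CPM in WT and 661, 739 and 771 CPM in DGCR8 KO, a drop with no overlap but a log2 fold change of only −0.27 ± 0.09 (limma adjusted p = 0.031). The call was lost without WT replicate 3 (adjusted p = 0.15) or without DGCR8 KO replicate 1 (adjusted p = 0.15). With replicate number as a block in the fit it held (limma adjusted p = 0.0090). Mcm7 (ENSMUSG00000029730, chr5:138164583-138172422) had 1025, 993 and 1170 CPM in WT and 1306, 1083 and 1555 CPM in DGCR8 KO. Its groups overlapped, since DGCR8 KO replicate 2 lay inside the WT range, and the log2 fold change of 0.29 ± 0.11 was barely past the threshold (limma adjusted p = 0.048). That call was lost with DESeq2 (adjusted p = 0.070), with limma-trend (0.053), with size factors of DESeq2 (0.072), with no filter (0.087), with a filter at 10 CPM (0.058), with TMM factors from genes off chromosomes 6 and 8 (0.074), with only the groups compared in the fit (0.10), with chromosome medians taken off (0.098) and without WT replicate 1 (0.12), WT replicate 2 (0.17), DGCR8 KO replicate 1 (0.11) or DGCR8 KO replicate 3 (0.23). The call for Mcm7 held with replicate number as a block in the fit (limma adjusted p = 0.0040) and with edgeR (adjusted p = 0.044). It also held with scaling by library totals (limma adjusted p = 0.040), without WT replicate 3 (0.034) and without DGCR8 KO replicate 2 (0.0024). Higher values of Mcm7 were seen in 3 of 3 DGCR8 KO libraries against the WT mean.

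Mcm10 and Cdc45, which act at firing, did not pass the test in DGCR8 KO. Mcm10 (ENSMUSG00000026669, chr2:4989714-5012791) had 201, 184 and 220 CPM in WT and 149, 167 and 193 CPM in DGCR8 KO, which overlapped, with a log2 fold change of −0.26 ± 0.12 (limma adjusted p = 0.10). Without DGCR8 KO replicate 3 it was −0.35 (adjusted p = 0.045). Cdc45 (ENSMUSG00000000028, chr16:18780447-18811972) had 85.5, 82.5 and 86.7 CPM in WT and 72.6, 81.4 and 63.9 CPM in DGCR8 KO. Its libraries did not overlap, and its log2 fold change of −0.23 ± 0.12 did not pass the test (limma adjusted p = 0.17).

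In DDX6 KO, 8 of the 10 genes fell and none rose. Mcm7, Mcm3, Mcm5, Cdc6, Mcm6, Cdc45, Mcm4 and Cdt1 were lower than in WT, and Mcm10 and Mcm2 did not pass the test. Among all genes tested, 16.6% were called lower and 17.9% higher, and the median log2 fold change was −0.52 for the 10 genes against 0.024 for all. The libraries did not overlap for 7 of the 10, against 39.9% of all genes. None of the 10 was beyond a log2 fold change of 1, as 11.2% of all genes were. Scaling by library totals moved the split over all genes from 2088 higher of 4032 called to 2822 of 4178. This comparison shares its 3 WT libraries with the one above, so that a WT library standing high or low would move both.

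Mcm7 and Mcm3 headed the fall in DDX6 KO, although they had been the exceptions in DGCR8 KO. Mcm7 had 576, 607, 611 and 607 CPM in the 4 DDX6 KO libraries, all below the lowest WT library at 993 CPM. The mean was 56.5% of WT and the log2 fold change −0.83 ± 0.11 (limma adjusted p = 1.5e-05). Mcm3 had 486, 513, 459 and 528 CPM, also below every WT library, with a log2 fold change of −0.81 ± 0.09 (limma adjusted p = 3.1e-06). Mcm5 had 348, 399, 397 and 407 CPM, 59.1% of the WT mean, with a log2 fold change of −0.76 ± 0.11 (limma adjusted p = 3.0e-05).

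Cdc6, Mcm6 and Cdc45 also fell in DDX6 KO. Cdc6 had 110, 98.1, 111 and 113 CPM, all under the WT range, with a log2 fold change of −0.72 ± 0.10 (limma adjusted p = 3.9e-05). Mcm6 had 421, 368, 371 and 331 CPM with a log2 fold change of −0.52 ± 0.09 (limma adjusted p = 0.00033). Cdc45 had 60.8, 61.9, 60.9 and 55.1 CPM, with a log2 fold change of −0.51 ± 0.12 (limma adjusted p = 0.0027). All 3 stayed below every WT library.

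Mcm4 and Cdt1 were closer to the threshold. Mcm4 had 644, 608, 616 and 545 CPM, below every WT library, and a log2 fold change of −0.43 ± 0.14 (limma adjusted p = 0.021). The call was lost without WT replicate 2 (adjusted p = 0.11), without replicate 2 of clone 2 (0.065), when counts were scaled by library totals (0.097), and with clone 1 alone (0.16) or clone 2 alone (0.067). Cdt1 had 313, 360, 342 and 318 CPM and overlapped WT replicate 1 at 351 CPM, with a log2 fold change of −0.30 ± 0.11 (limma adjusted p = 0.037). Its call was lost without WT replicate 2 (adjusted p = 0.15), WT replicate 3 (0.14), replicate 1 of clone 1 (0.092), or replicate 1 (0.062) or 2 (0.083) of clone 2, with limma-trend (0.051), with scaling by totals (0.18), with TMM factors from genes off chromosomes 6 and 8 (0.053), with chromosome medians taken off (0.060) and with clone 1 (0.16) or clone 2 (0.12) alone. Mcm10 had 160, 173, 169 and 205 CPM, overlapped WT and had a log2 fold change of −0.19 ± 0.12 (limma adjusted p = 0.21).

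Mcm2 was the subunit whose level in DDX6 KO was closest to that in WT. It had 412, 426, 462 and 452 CPM in DDX6 KO against 410 to 454 CPM in WT, which overlapped, with a log2 fold change of 0.026 ± 0.09 (limma adjusted p = 0.85). It lies on chromosome 6, whose median gene was higher in the same libraries. With that median taken off, Mcm2 was −0.58 ± 0.09 log2 units from WT (limma adjusted p = 0.00016), with remainders from −0.74 to −0.46 per library against −0.069 to 0.084 in WT. Relative to its chromosome Mcm2 was thus below every WT library in 4 of 4 libraries.

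**Figure D3:**
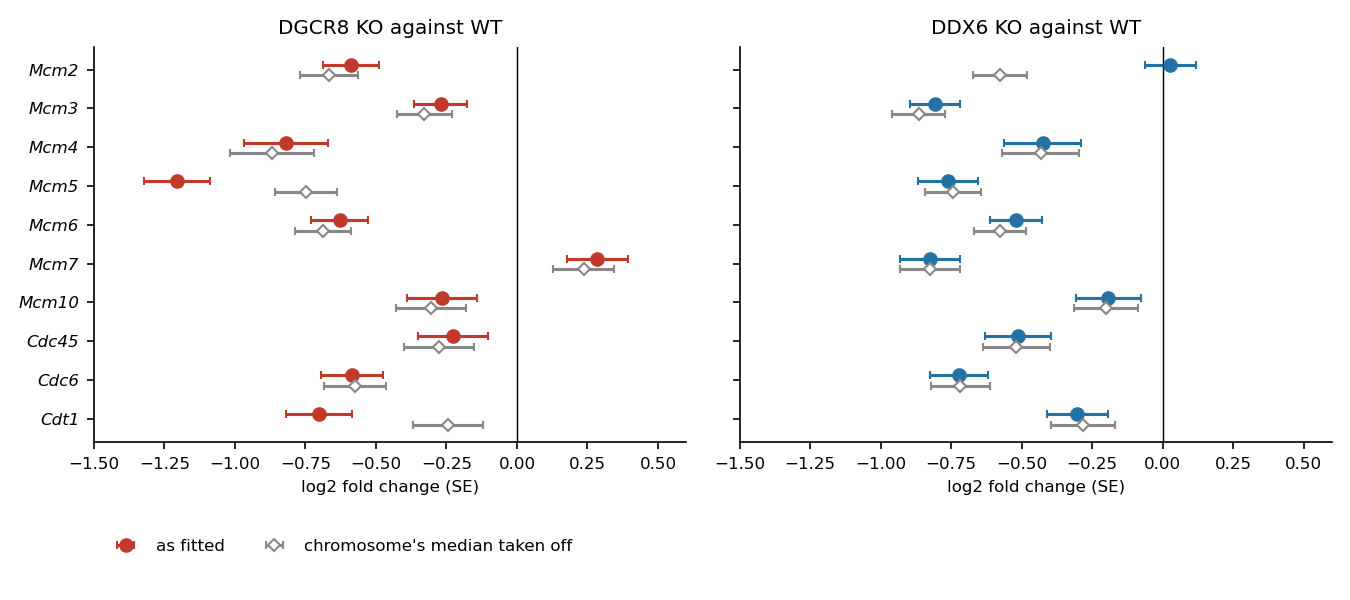
Log2 fold changes of the 10 genes in DGCR8 KO and DDX6 KO against WT with their SE (filled points, all 10 libraries in 1 fit), and the same after the median change of the gene's chromosome was taken off each library (open diamonds). The diamonds part from the points for Mcm5 and Cdt1 on chromosome 8 in DGCR8 KO and for Mcm2 on chromosome 6 in DDX6 KO, from −1.21 to −0.75, −0.70 to −0.24 and 0.026 to −0.58.

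The 2 DDX6 KO clones were also compared with each other. Against WT, 6 genes passed the test in clone 1 (23.8% of all genes called) and 7 in clone 2 (24.6% of all genes called), and each of them was lower than in WT. With scaling by totals the higher calls over all genes went from 1534 of 2780 to 2063 of 2967 in clone 1 and from 1513 of 2874 to 2147 of 3035 in clone 2. The gene called only in clone 2 was Mcm4, with log2 fold changes of −0.37 ± 0.17 (limma adjusted p = 0.12) in clone 1 and −0.48 ± 0.17 (0.045) in clone 2. That call was lost when the clone 1 libraries were left out of the fit (limma adjusted p = 0.067), and the count of 7 became 6 with edgeR, limma-trend, scaling by totals, TMM factors from genes off chromosomes 6 and 8 and a filter at 10 CPM. Mcm4 itself differed between the clones by −0.11 ± 0.19. Between the clones 0 of the 10 genes passed limma's test, edgeR's quasi-likelihood test or DESeq2, and 0 had an unadjusted limma p under 0.05, while 0.0428% of all genes were called. The log2 differences between clones ran from −0.17 ± 0.12 for Mcm6 to 0.17 ± 0.15 for Mcm10. With 2 libraries per clone the SE of these differences was 0.12 to 0.19, so small differences could not be seen. Ddx6 itself was lower in clone 2 (log2 difference −2.18 ± 0.19, limma adjusted p = 3.1e-05).

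Compared directly, the knockouts differed for 6 of the 10 genes. Mcm7 and Mcm3 were higher in DGCR8 KO than in DDX6 KO, while Mcm2, Mcm5, Cdt1 and Mcm4 were lower. Among all genes tested, 23.0% were called higher and 21.0% lower, and 17.1% were called beyond a log2 fold change of 1, as Mcm7 alone was among the 10. The libraries did not overlap for 6 of the 10, against 45.8% of all genes. Scaling by library totals moved the split over all genes from 2688 higher of 5144 called to 2037 of 5247. The median log2 difference was −0.090 for the 10 genes against 0.0019 for all.

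Mcm7 had the largest difference, 1083 to 1555 CPM in DGCR8 KO against 576 to 611 CPM in DDX6 KO, or 2.16-fold (log2 difference 1.11 ± 0.11, limma adjusted p = 1.8e-07). Mcm3 was 1.45-fold higher in DGCR8 KO with no overlap (log2 difference 0.54 ± 0.09, limma adjusted p = 0.00011). These were the genes that held the first and second place in DGCR8 KO, whereas in DDX6 KO Mcm4 at 603 ± 41.5 CPM and Mcm7 at 600 ± 16.4 CPM (SD, n = 4) shared the top of the order and overlapped.

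The 4 genes that were lower in DGCR8 KO included the 3 on the shifted chromosomes. Log2 differences were −0.61 ± 0.09 for Mcm2 (limma adjusted p = 4.0e-05), −0.44 ± 0.11 for Mcm5 (0.0037) and −0.40 ± 0.11 for Cdt1 (0.0078). With chromosome medians taken off they were −0.089 ± 0.10 (limma adjusted p = 0.49), −0.0064 ± 0.11 (0.97) and 0.038 ± 0.12 (0.82), and the count of called genes fell from 6 to 3, namely Mcm3, Mcm4 and Mcm7. Without DGCR8 KO replicate 1 the call for Cdt1 was also lost (adjusted p = 0.066). Mcm4 differed by −0.39 ± 0.14 (limma adjusted p = 0.031) with overlapping libraries, and its call was lost without either of DGCR8 KO replicates 1 (0.073) and 3 (0.25) and without replicate 1 (0.064) or 2 (0.056) of clone 1 or replicate 1 of clone 2 (0.053). Cdc45 was higher in DGCR8 KO with no overlap, but its log2 difference of 0.29 ± 0.12 did not pass (limma adjusted p = 0.062), nor did those of Cdc6, Mcm6 and Mcm10, which lay between −0.11 and 0.14. Without DGCR8 KO replicate 3 Cdc45 passed (0.37, adjusted p = 0.032).

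The balance among the ring subunits was followed within each library, a ratio that needs no scaling between libraries. Mcm7 took 24.5%, 22.9% and 25.7% of the Mcm2 to Mcm7 counts in WT, 39.2%, 32.4% and 43.2% in DGCR8 KO, and 19.9%, 20.8%, 20.9% and 21.2% in DDX6 KO. The 3 groups did not overlap, and the 95% Wilson interval of the most extreme library, DGCR8 KO replicate 3, was 42.1% to 44.2% (counting error only, 8840 counts). By share, the order of the groups for Mcm7 was thus DDX6 KO, WT and DGCR8 KO. The shares of a library make up a fixed whole, so that of Mcm7 rises when the other subunits fall. In CPM the Mcm7 libraries of DGCR8 KO and WT overlapped. How much of its higher share came from the fall of other subunits was not tested.

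Mcm5 took 14.7%, 13.9% and 16.4% in WT, 8.51%, 7.45% and 9.15% in DGCR8 KO and 12.1%, 13.6%, 13.6% and 14.2% in DDX6 KO, and the share in DGCR8 KO was below all other libraries. Mcm2 took 9.90 ± 0.80% in WT (SD, n = 3), 8.40 ± 1.05% in DGCR8 KO (n = 3) and 15.1 ± 0.81% in DDX6 KO (n = 4), where all 4 libraries were above every WT library. These shares were not corrected for the chromosome shifts: the median gene of chromosome 6, which holds Mcm2, stood at 0.59 log2 units from WT in DDX6 KO, and that of chromosome 8, which holds Mcm5, at −0.45 in DGCR8 KO. Their part in the shares was not tested. Mcm3 took 19.9 ± 0.67% in WT and 17.1 ± 1.12% in DDX6 KO without overlap. Exact permutation tests over libraries (two-sided) cannot go below p = 0.1 for 3 against 3 or 0.0571 for 3 against 4, so no share could pass 0.05. The smallest value was reached for Mcm5, Mcm6 and Mcm7 in DGCR8 KO against WT (exact p = 0.1, 0.2 adjusted over 6 subunits), with differences of −6.64, −2.11 and 13.9 percentage points. It was also reached for Mcm2, Mcm3 and Mcm7 in DDX6 KO against WT (exact p = 0.0571, 0.114 adjusted), with differences of 5.21, −2.72 and −3.64 points. Between the knockouts the libraries did not overlap for any of the 6 subunits (exact p = 0.0571 each, 0.0571 adjusted), and Mcm7 differed by 17.6 points.

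**Figure D4:**
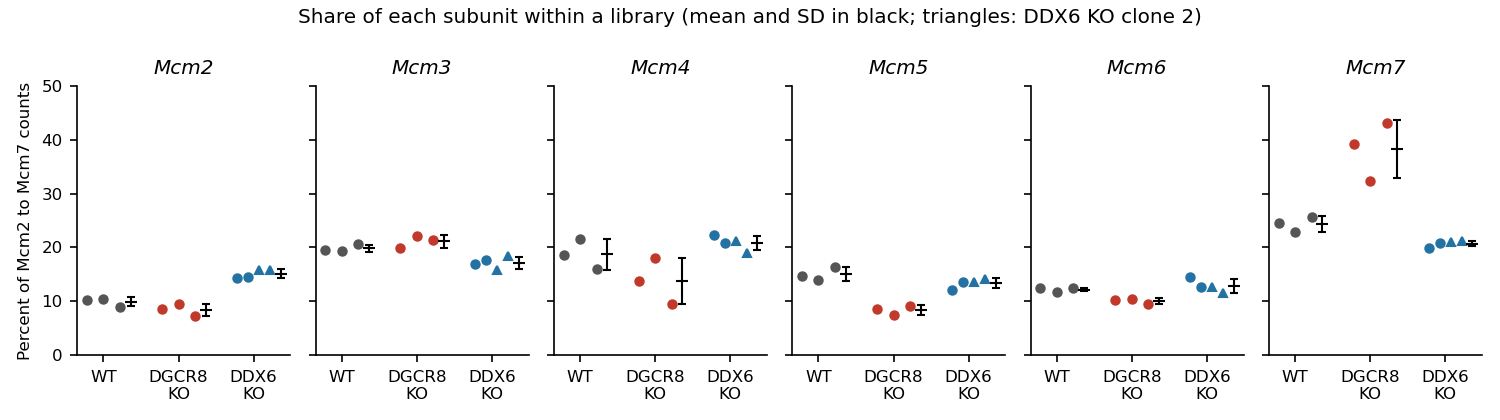
Percent of the summed Mcm2 to Mcm7 counts taken by each subunit in each library, on 1 scale from 0 to 50%, with group means and SD in black (n = 3, 3 and 4). Triangles are DDX6 KO clone 2. Mcm7 took between 32.4% and 43.2% in DGCR8 KO against 22.9% to 25.7% in WT, and Mcm5 between 7.45% and 9.15%.

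Mcm7 is also the host gene of 3 microRNA hairpins, Mir25, Mir93 and Mir106b, within its span on the minus strand of chromosome 5. Microprocessor, of which DGCR8 is a part, cuts such hairpins out of host transcripts. No annotated exon of Mcm7 shared bases with another gene on its own strand. Whether the cutting alters the Mcm7 RNA counted here was not tested. The mature microRNAs are shown (RefSeq, GRCm38.p6) because 2 of them share a seed, and that of miR-294 and miR-295, abundant microRNAs of ESCs, is the same run of letters shifted by 1 base. They lie at chr5:138165332-138165353 (miR-25-3p), chr5:138165574-138165596 (miR-93-5p) and chr5:138165787-138165807 (miR-106b-5p), and miR-294-3p and miR-295-3p at chr7:3220691-3220712 and chr7:3220815-3220837 on the plus strand. Capitals mark the seed, bases 2 to 8.
miR-25-3p: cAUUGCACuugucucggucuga
miR-93-5p: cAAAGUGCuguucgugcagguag
miR-106b-5p: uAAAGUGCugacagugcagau
miR-294-3p: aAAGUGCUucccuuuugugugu
miR-295-3p: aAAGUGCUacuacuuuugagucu
The seed AAAGUGC is the same in miR-93-5p and miR-106b-5p, and AAGUGCU the same in miR-294-3p and miR-295-3p. Letters that pair with a whole seed were searched in the longest annotated 3′ UTR of each gene (GENCODE M21, lengths from 129 to 2731 bases for the 10 genes and a median of 1207 bases over 10959 tested genes). GCACTTT, which pairs with miR-93 and miR-106b, was found in Mcm3 and Mcm7, or 2 of 10 against 14.97% of tested genes. AGCACTT, which pairs with miR-294 and miR-295, was found in Cdc6 alone against 17.99%, and GTGCAAT, which pairs with miR-25, in none against 7.63%. The study takes the shorter AAGUGC as the seed of the family of miR-294 and miR-295. The letters that pair with it, GCACTT, lie within GCACTTT, so Mcm3 and Mcm7 hold them too. This shorter run was not counted over all genes. For GCACTTT the count of 2 of 10 is near the share of 14.97% over tested genes. Both windows with it are shown 5′ to 3′ with the paired letters in capitals.
Mcm3: ccccacccccagGCACTTTagtcca
Mcm7: ttctcccatgctGCACTTTtttatt
The letters start at base 284 of 488 in the 3′ UTR of Mcm3 and at base 82 of 136 in that of Mcm7. Mcm7 thus carried in its 3′ UTR the letters that pair with microRNAs from within its own span. Whether any of these letters is used was not measured here.

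The genes whose profiles lay nearest were sought for Mcm7 and Mcm5, which varied most among the genotypes for their error (moderated F of 62.2 and 56.6), among 8623 genes of at least 10 mean CPM. Over the 10 libraries the nearest to Mcm7 were Tfrc, the transferrin receptor, Mrpl17, a mitochondrial ribosomal protein, and Acly, ATP citrate lyase. Their root mean square differences were 0.099, 0.10 and 0.12 log2 units, and the median over the 8623 genes was 0.58. Genes picked as nearest lie below that median by choice. Tfrc, for example, had means of 352 CPM in WT, 482 CPM in DGCR8 KO and 199 CPM in DDX6 KO. Those nearest to Mcm5 were Psat1, an enzyme of serine synthesis, Dctpp1, a pyrophosphatase that cleans the nucleotide pool, and Mphosph6 of chromosome 8, at 0.091, 0.092 and 0.11 log2 units against a median of 0.58. Psat1 had means of 290, 129 and 182 CPM in the same order. The Mcm5 profile was used with the shift of chromosome 8 in DGCR8 KO left in.

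The genes that act just before and after the 10 were read from lists. The shares to read their counts against are those of all genes, 16.5% lower and 19.9% higher in DGCR8 KO and 16.6% and 17.9% in DDX6 KO. Of the 6 origin recognition subunits, 3 were lower in DGCR8 KO, Orc6 (log2 fold change −0.90 ± 0.15, limma adjusted p = 0.00012), Orc1 (−0.57 ± 0.14, 0.0039) and Orc2 (−0.37 ± 0.12, 0.025), and none was higher. In DDX6 KO 1 of 6 was lower, a share near that of all genes, namely Orc1 (−0.70 ± 0.13, limma adjusted p = 0.00051). Orc6 lies on chromosome 8 and had −0.44 ± 0.16 with the chromosome's median taken off (limma adjusted p = 0.034). The median log2 fold change of the list was −0.33 in DGCR8 KO and −0.24 in DDX6 KO.

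Of 12 GINS subunits and firing factors, 7 were lower and 1 higher in DGCR8 KO (16.5% and 19.9% of all genes), with a list median of −0.50, and 3 of the 7 lie on chromosome 8. In DDX6 KO 2 were lower and none higher (16.6% and 17.9% of all genes), a share of lower genes near that of all genes, with a median of −0.12. The difference between these counts was not tested. Gins2 had means of 234 ± 26.7 CPM in WT (SD, n = 3), 102 ± 8.86 CPM in DGCR8 KO (n = 3) and 261 ± 34.9 CPM in DDX6 KO (n = 4), and its log2 fold change in DGCR8 KO was −1.21 ± 0.13 (limma adjusted p = 1.8e-06). Gins3 fell by 1.26 ± 0.21 on the log2 scale (limma adjusted p = 0.00012), Gins4 by 0.79 ± 0.13 (0.00011) and Donson, which helps to place GINS, by 0.78 ± 0.17 (0.0016). Gins2, Gins3 and Gins4 all lie on chromosome 8. With its median taken off they had −0.75 ± 0.13 (limma adjusted p = 0.00027), −0.80 ± 0.21 (0.0060) and −0.33 ± 0.13 (0.059), so Gins4 no longer passed. The gene that rose was Mtbp, named after its value was seen (0.73, adjusted p = 0.030). In DDX6 KO the genes that fell were Gins1 (−0.63 ± 0.15, limma adjusted p = 0.0032) and Ticrr, which brings Cdc45 to the ring (−0.57 ± 0.14, 0.0037). Both were also lower in DGCR8 KO, Gins1 by −0.50 (limma adjusted p = 0.019) and Ticrr by −0.50 (0.012), and neither difference between the knockouts passed (0.13, limma adjusted p = 0.52, and 0.067, limma adjusted p = 0.73). Tested directly, Gins2 was lower in DGCR8 KO than in DDX6 KO by a log2 difference of −1.35 ± 0.13 (limma adjusted p = 1.6e-07), and by −0.91 ± 0.13 with the chromosome's median taken off (1.5e-05). Gins3 likewise differed by −1.22 ± 0.20 (limma adjusted p = 8.2e-05) and by −0.78 ± 0.20 with the median taken off (0.0046), whereas Gins4 went from −0.54 ± 0.12 (0.0018) to −0.10 ± 0.13 (0.54).

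Gmnn, the brake on Cdt1, fell in both knockouts and by more in DDX6 KO. Its means were 270 ± 16.7 CPM in WT (SD, n = 3), 224 ± 14.9 CPM in DGCR8 KO (n = 3) and 154 ± 7.05 CPM in DDX6 KO (n = 4). The log2 fold changes were −0.28 ± 0.10 (limma adjusted p = 0.039) and −0.82 ± 0.10 (5.4e-06), and the difference between the knockouts passed as well (0.54 ± 0.10, 0.00021). Mcm8, Mcm9 and Mcmbp, relatives and partners of the ring, passed in no comparison with WT, with log2 fold changes between −0.27 and 0.10, and Gmnc did not pass the filter.

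Downstream, the fork and nucleotide lists moved in part. Of 25 fork and polymerase genes 7 were lower and 2 higher in DGCR8 KO (16.5% and 19.9% of all genes, list median −0.10), and 12 were lower and 2 higher in DDX6 KO (16.6% and 17.9% of all genes, list median −0.34). Tipin, a fork protection factor, led the fall in DGCR8 KO (−1.08 ± 0.12, limma adjusted p = 2.9e-06), ahead of the polymerase epsilon subunits Pole3 (−0.81 ± 0.14) and Pole4 (−0.65 ± 0.12), while the primase subunit Prim2 rose (0.66 ± 0.20). In DDX6 KO the catalytic subunit of polymerase delta, Pold1 (−0.82 ± 0.14, limma adjusted p = 0.00019), the ligase Lig1 (−0.79 ± 0.11) and the clamp loader subunit Rfc5 (−0.76 ± 0.14) fell, and Rpa3 of chromosome 6 rose (1.28 ± 0.38, or 0.68 less the chromosome's median). The other genes that rose, named after their values were seen, were Pola1 in DGCR8 KO (0.55) and Pole4 in DDX6 KO (0.28), which lies on chromosome 6 and was below that chromosome's median of 0.59. Of 8 nucleotide supply genes 3 were lower and none higher in DGCR8 KO (16.5% and 19.9% of all genes), led by the ribonucleotide reductase subunit Rrm2 (−1.27 ± 0.14, limma adjusted p = 1.3e-06), then Ctps (−0.34) and Umps (−0.34). In DDX6 KO (16.6% of all genes lower, 17.9% higher) 3 were lower, Tyms (−0.72), Umps (−0.72) and Rrm2 (−0.67), and 1 was higher, the nucleoside transporter Slc29a1 (0.71).

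Mitotic genes, which act after S phase, were lower in part as well. Of 18, 10 were lower in DGCR8 KO (16.5% of all genes) and 7 in DDX6 KO (16.6% of all genes), and none was higher in either, with medians of −0.32 and −0.21. Ccnb1, cyclin B1, had a log2 fold change of −0.77 ± 0.11 in DGCR8 KO (limma adjusted p = 3.0e-05), and Cdc20, an activator of the anaphase-promoting complex, of −0.96 ± 0.12 in DDX6 KO (9.7e-06). The medians of the 10 licensing and firing genes, −0.59 and −0.52, can be set beside these, but the lists were not tested against each other.

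**Figure D5:**
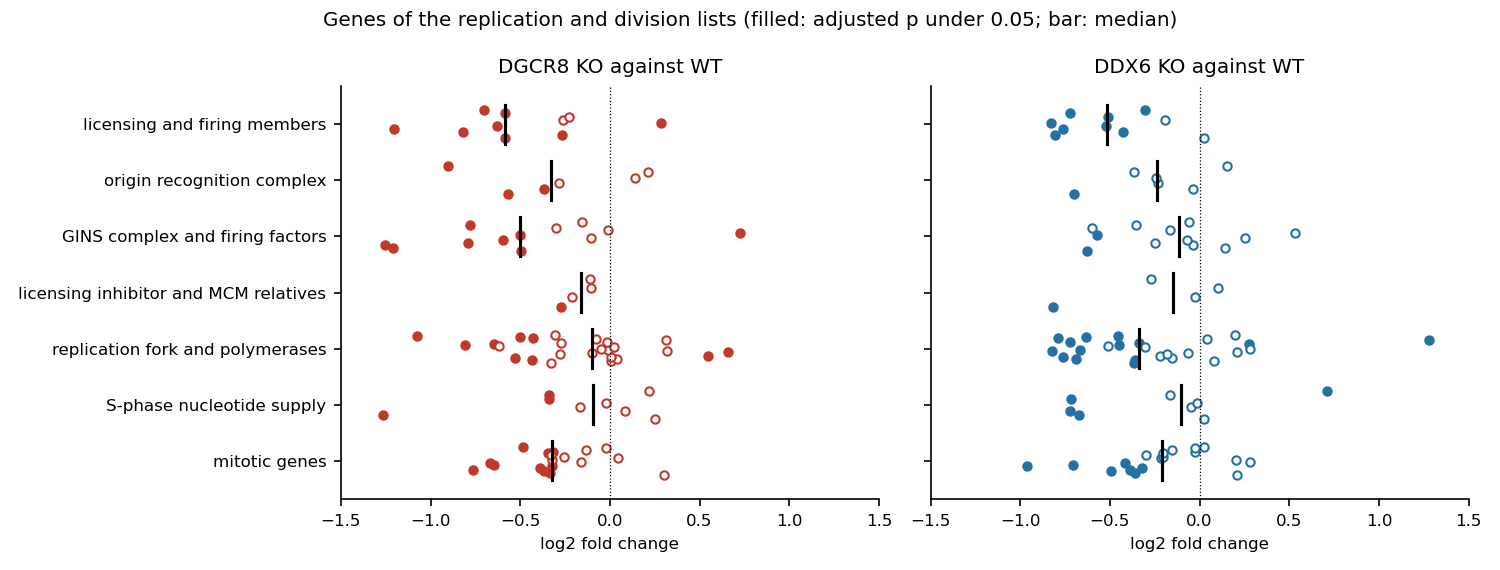
Log2 fold changes against WT of each tested gene of 7 lists, in DGCR8 KO and in DDX6 KO, with filled points for limma adjusted p under 0.05, open points otherwise and a black bar at the list's median. The medians of the licensing and firing genes were −0.59 and −0.52, and those of the GINS complex and firing factors were −0.50 and −0.12.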

How the data were processed

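The deposited counts are whole numbers of reads per gene. The authors trimmed reads with cutadapt 1.14, aligned them to mm10 with STAR 2.5.3a keeping unique matches, and counted sense reads over exons with featureCounts 1.5.3 and a Gencode annotation with spike-ins. No molecular identifiers are stated, so PCR copies count as reads and intervals cover counting error only. Totals ran from 2131156 to 4745083 counts, where 3 counts equal 0.632 to 1.41 CPM.

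Spike-ins were set apart. Genes reaching 3 CPM in 3 or more libraries (11683) were tested in limma 3.58.1 with voom weights and TMM scaling (edgeR 4.0.16, R 4.3.3) over all 10 libraries, as in the study where stated, with Benjamini-Hochberg adjustment and a threshold of 0.05. A second model gave each clone its own group. DESeq2 1.42.0, edgeR and other scalings, filters and left-out libraries were alternatives. All 10 members were named, with at most 4 genes per list and comparison that passed and did not overlap, in order of size. The members and lists were chosen with earlier results of these data known. Replicate numbers paired WT with DGCR8 KO by the data (correlations of deviations 0.112, 0.233 and 0.236), not by a stated batch. The block ended none of these calls. Gene names came from GENCODE M21 (GRCm38), on the same build. Of the members, only Mcm7 and Cdc45 share exonic bases with another gene, all on the opposite strand, which sense counting separates.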

Additional observations from a re-analysis of the deposited data

Results flagged for a closer look

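The change from WT differed between the knockouts for 6 genes, by the direct test in the limma fit. The log2 differences, DGCR8 KO less DDX6 KO, were 1.11 for Mcm7, 0.54 for Mcm3, −0.61 for Mcm2, −0.44 for Mcm5, −0.40 for Cdt1 and −0.39 for Mcm4. Mcm2, Mcm5 and Cdt1 lie on chromosomes whose median gene was shifted in 1 of the knockouts.

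Among the 4 DDX6 KO libraries 1 stood far from the others for 3 of the 10 genes, by the gap to its neighbour over the range. These were Mcm5 at 348 CPM and Mcm7 at 576 CPM, both lowest in replicate 1 of clone 1, and Cdc45 at 55.1 CPM, lowest in replicate 2 of clone 2. In all 16 sets of 4 were examined, counting 6 of shares in which none was past the limit, and chance alone flags about 1 in 20. All 3 values were still on the same side of WT as the rest of their group.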

How the results depend on the processing

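Of 550 recomputed fold changes of the 10 genes in the 3 comparisons of genotypes, 499 kept their direction and side of the threshold. When a call also needed a log2 fold change beyond 1, the 8 members past the threshold in DGCR8 KO became 1, the 8 in DDX6 KO became 0, the 6 between the knockouts became 1, and the 6 and 7 of clones 1 and 2 became 0. With chromosome medians removed, the 6 between the knockouts became 3. Leaving out 1 library gave 6 to 8 members in DGCR8 KO, 6 to 8 in DDX6 KO, 4 to 6 between the knockouts, 4 to 6 in clone 1, 5 to 7 in clone 2 and 0 between the clones. Mcm2 in DDX6 KO, less the median of chromosome 6, was −0.57 as fitted and −0.38 with no filter. Directions turned for Mcm2 in DDX6 KO with the replicate block (−0.025), with chromosome medians removed (−0.58), without WT replicate 3 (−0.017, leave-one-out range −0.017 to 0.061) and with clone 1 alone (−0.028). They turned between the knockouts for Mcm10 without DGCR8 KO replicate 1 (0.012) or replicate 2 of clone 2 (0.0021), with a leave-one-out range of −0.16 to 0.012, and for Cdt1 with chromosome medians removed (0.038). The causes were not tested.

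The replicate block left each count of members within 1.5 times (8 in DGCR8 KO, 8 in DDX6 KO, 6 between the knockouts). It turned the sign of Mcm2 in DDX6 KO against WT, which stayed far from the threshold (limma adjusted p = 0.86). Between the knockouts it moved Mcm4 (−0.25, limma adjusted p = 0.052) and Cdc45 (0.32, limma adjusted p = 0.041) across the threshold. Numbers did not pair the libraries of the knockouts (correlations from −0.037 to 0.15). Scaling by totals put the median of all genes at 0.15 log2 units in DDX6 KO against WT and at −0.13 between the knockouts. With 1 library left out at a time, the share differences from WT kept their sign for all 6 subunits. In DGCR8 KO that of Mcm7 ran from 11.5 to 16.8 points, of Mcm4 from −7.10 to −2.76, of Mcm2 from −2.02 to −0.97 and of Mcm3 from 0.77 to 1.91. In DDX6 KO that of Mcm4 ran from 0.71 to 3.55, of Mcm5 from −2.19 to −0.95 and of Mcm6 from 0.11 to 1.13.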
